A study of Mus musculus with 6 samples.

Results

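A poly(A) site is the position at which an RNA is cut and given its poly(A) tail, and the sites described here are those in the developing mouse retina that lie outside annotated genes. A site was taken when its 3′ edge lay in no GENCODE M21 gene on either strand, on build mm10, and not within 10000 bases past the end of a gene on the same strand. The rule used position alone and no measured value. It left 921 of the 32670 nuclear sites (2.82%), or of 32688 sites with the mitochondrial ones included. Most of them were not far from a gene: 589 of the 921 (63.9%) had a gene on either strand within 5000 bases, the median distance to the nearest gene was 2509 bases, and only 244 sites lay more than 10000 bases from any gene. They are therefore called intergenic sites here.

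Retinas of C57BL/6J mice were taken in embryonic life (E13.5, E15.5 and E18.5) and after birth (P0, P6 and P21), with 1 sample for each of the 6 stages, and no treatment or genotype is given. RNA was extracted with TRIzol, and PA-seq, a method that primes with oligo(dT) and sequences the 3′ ends of polyadenylated RNA with their strand, gave a count of tags at each site. Each stage had 2 count columns, marked R1 and R2, and the sources used here do not say whether these are separate samples or runs of 1. They were added and counted as 1 library per stage, so no SD is given, and a p-value here asks only whether a value ran with stage order. The depth of the libraries was 3286158 to 4656153 tags, and summed photoreceptor markers stood at 19530 CPM (counts scaled to library size) at P21, against 2373 CPM at E13.5, while summed lens markers were highest at E15.5 (3986) and P0 (5760 CPM).

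Many promoters start RNA in both directions. The RNA that runs away from the gene, upstream and antisense, often meets a poly(A) signal early, is cut there and is then degraded in the nucleus. Other intergenic sites can be the ends of long 3′ extensions of a gene or of noncoding RNAs that an annotation does not hold. The hexamer AATAAA, or its variant ATTAAA, a short way before the cut is the main signal for cleavage, and an A-rich stretch just after a site is a known way for an oligo(dT) primer to anneal inside an RNA.

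The intergenic sites gathered on the upstream, antisense side of gene starts. Of the 921, 499 (54.2%) lay within 5000 bases upstream of a gene start and on the opposite strand, against 93 sites that lay within the same distance upstream on the same strand and 133 that lay within it of the end of an opposite-strand gene ahead. Within 1000 bases the counts were 224 antisense, 12 same strand and 37 facing a gene end. The antisense sites had a median distance of 1126 bases to the start, with quartiles of 549 and 2168 bases. They belonged to 435 partner genes, and 454 of the 499 (91.0%) had a protein-coding partner, whereas 39.6% of the 55450 annotated genes code for protein. The latter share includes genes without tags in this table, and the share among genes with tags is not given here.

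**Figure D1:**
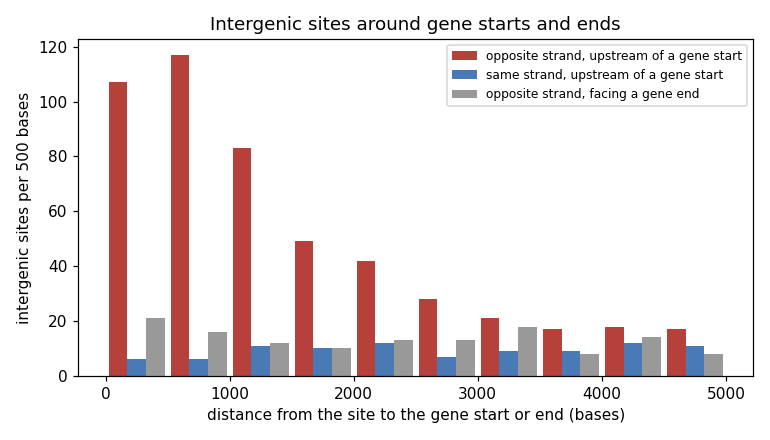
Number of intergenic sites (y axis) per 500 bases of distance (x axis, bases) from a gene start on the opposite strand (red), a gene start on the same strand (blue) and the end of an opposite-strand gene ahead (grey). The antisense bars held 107, 117 and 83 sites in the first bins and 17 in the last, while the same-strand bars held between 6 and 12 in every bin.

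The other sites were sorted by position into 4 further classes. A far downstream class of 237 sites lay more than 10000 and up to 50000 bases past the end of a same-strand gene, with a median of 21819 bases. Another 89 sites lay upstream of a same-strand gene within 50000 bases, and 34 sites faced the end of an opposite-strand gene (tail to tail). The remaining 62 sites had none of these neighbours and are called isolated, with a median of 64225 bases to the nearest gene. RefSeq, a second annotation, had a same-strand gene over 149 of the 921 sites and no gene over 646.

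Sequence was at hand for 19 of the sites, 17 antisense and 2 far downstream, whose 40 bases up to the edge fell within a RefSeq promoter sequence (GRCm38.p6, 250 bases before to 50 after a gene start). Of the 19, 17 (89.5%) held AATAAA or ATTAAA, and 14 held AATAAA. The first base of the signal stood 19 to 32 bases before the cut, with a median of 22, counting the edge base as 1. In 459914 adjoining windows of 40 bases from all promoter sequences, both strands, the same search found either hexamer in 2.40%. Of the 16 sites with 20 further bases, 1 had an A-rich stretch (6 A in a row or 7 A among 10) after the edge. The 19 sites are those close to a RefSeq start, so the share does not describe all 921. Sequences are shown for the 5 of the 19 sites that rose and for the forms the signal took, each 5′ to 3′ on the strand of the site, with the hexamers in capitals.
Sfpq antisense site (chr4:127021101-127021160, minus strand): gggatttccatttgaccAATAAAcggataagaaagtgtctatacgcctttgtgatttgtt
Snrnp35 antisense site (chr5:124483039-124483098, minus strand): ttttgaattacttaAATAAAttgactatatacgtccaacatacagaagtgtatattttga
Smarcad1 antisense site (chr6:65042402-65042461, minus strand): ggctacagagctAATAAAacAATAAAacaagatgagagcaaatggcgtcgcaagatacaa
Zfp207 antisense site (chr11:80383029-80383079, minus strand): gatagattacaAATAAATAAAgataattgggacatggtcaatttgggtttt
Zfp1 antisense site (chr8:111643227-111643286, minus strand): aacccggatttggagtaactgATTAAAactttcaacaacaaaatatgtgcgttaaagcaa
Pank4 antisense site (chr4:154963897-154963956, minus strand): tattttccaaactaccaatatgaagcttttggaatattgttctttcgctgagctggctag
Zfp568 antisense site (chr7:29983557-29983616, minus strand): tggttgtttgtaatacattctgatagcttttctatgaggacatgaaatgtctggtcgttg
Site at the RefSeq start of Gm32587 (chr14:18463566-18463625, plus strand): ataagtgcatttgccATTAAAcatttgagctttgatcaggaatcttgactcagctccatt
The Sfpq, Snrnp35 and Gm32587 sites rose with stage order and held a signal, Smarcad1 and Zfp207 had 2 matches each, which overlap at Zfp207, Zfp1 had the ATTAAA variant, and the Pank4 and Zfp568 sites rose and held neither hexamer in this window. They were the only 2 of the 19 without one.

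The tags behind these sequences were few. The antisense site of Sfpq, an RNA-binding splicing factor, had 1.05, 3.39, 5.39, 7.35, 9.05 and 13.9 CPM (over nuclear tags) in stage order. It was higher at each stage than at the one before, with a fitted log2 change over the 5 steps of 3.07 ± 0.56 (SE, adjusted p = 0.00711 by edgeR's quasi-likelihood test), while Sfpq itself fell by 1.14 ± 0.21 (adjusted p = 0.00834). The antisense site of Snrnp35, a protein of the minor spliceosome, stood apart at P6: it had 100 and 99 tags in the columns of P6 and 13 and 13 at P21, and at most 14 tags in any column of the 4 earlier stages. Its linear change was 4.47 ± 1.34 (adjusted p = 0.042), though a straight line describes such a peak poorly and the call was lost when any stage other than P21 was left out. It was also lost in first columns alone and with days after conception in place of stage order. Snrnp35 itself fell by 1.40 ± 0.38 (adjusted p = 0.03). The Pank4 antisense site had 1.32, 1.82, 1.94, 3.06, 5.38 and 7.20 CPM and rose by 2.61 ± 0.55 (adjusted p = 0.0121), a call lost without E13.5 or P21 and in first columns alone. The Zfp568 antisense site had 0.264, 3.39, 1.73, 2.45, 2.94 and 14.1 CPM and rose by 3.50 ± 0.96 (adjusted p = 0.0304), a call lost without E13.5, E18.5 or P21 and in first columns alone, while Zfp568, a zinc finger gene, fell by 1.59 ± 0.34 (adjusted p = 0.0142). The site at the RefSeq start of Gm32587, on chr14:18463605, had 95 and 92 tags at P21 and at most 13 in any other column, with 0 or 1 in every second column before P21. Its change was 5.84 ± 1.41 (adjusted p = 0.0193), a call lost without E15.5 or P21, and it was not tested in second columns alone. The sites at Zfp207, a gene of the mitotic spindle, at Smarcad1, a chromatin remodeller, and at Zfp1 had 3.98 to 15.2, 0.781 to 3.34 and 4.40 to 9.49 CPM and did not pass the test.

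Promoters of the partner genes were rich in CpG. RefSeq held a promoter sequence for 319 of the 435 partner genes, and their median ratio of observed to expected CpG was 0.834, against 0.389 for all 27025 genes with a sequence. Among protein-coding genes that had tags in this table, 87.2% of 305 partner genes had a ratio of 0.6 or more, and the share over all 10298 such genes, partners included, was 72.5%.

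The intergenic sites took a larger share of the nuclear tags at later stages. In stage order they held 0.419, 0.501, 0.554, 0.520, 0.566 and 0.795% of nuclear tags, which were 30918 tags at P21, against 15903 at E13.5. The share at P21 was 1.90 times that at E13.5, with 95% Wilson intervals of 0.786 to 0.804% at P21 and 0.413 to 0.426% at E13.5, which cover counting error only. Spearman's rho with stage order was 0.943 (two-sided exact permutation test over 720 orders, p = 0.0167) and Pearson's r was 0.861 (exact permutation p = 0.0139). P21 stood highest and E13.5 lowest. Without both, rho was 0.8 and r 0.693 over 4 libraries, whose 24 orders are too few for an exact permutation p to reach 0.05. Leaving out E13.5, E15.5, P6 or P21 gave a rho of 0.9 and an exact permutation p of 0.0833. In bulk tissue, fewer cells of a type and less RNA per cell cannot be told apart.

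1 site weighed on that order. The site with the most tags, 6432 in all, lies on chr Y and held 4.88% of all intergenic tags. Without it the shares were 0.394, 0.448, 0.504, 0.511, 0.557 and 0.783%, rising at every step, with a rho of 1 (exact permutation p = 0.00278, the smallest the 720 orders can give). The 244 sites with no gene within 10000 bases, the chr Y site among them, held 0.0945, 0.141, 0.149, 0.110, 0.136 and 0.228%. Their ratio of P21 to E13.5 was 2.41, and their rho was 0.543 (exact permutation p = 0.297). In stage order the chr Y site itself had 253, 533, 493, 87.55, 92.7 and 122 CPM, and the set was not tested without it.

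By class, the ratio of P21 to E13.5 ran from 1.51 to 4.02. Antisense sites held 0.231, 0.256, 0.294, 0.302, 0.300 and 0.389% of nuclear tags, a ratio of P21 to E13.5 of 1.68 (rho 0.943, exact permutation p adjusted over 5 classes = 0.0208). Far downstream sites held 0.102, 0.122, 0.130, 0.137, 0.144 and 0.226%, a ratio of 2.22 with every step upward (rho 1, adjusted exact permutation p = 0.00694). Isolated sites held 0.0126, 0.0155, 0.0169, 0.0170, 0.0268 and 0.0507%, a ratio of 4.02 (rho 1, adjusted exact permutation p = 0.00694). The ratio of the tail-to-tail sites was 2.69 (rho 0.943, adjusted exact permutation p = 0.0208). Same-strand upstream sites, which include the chr Y site, had a rho of -0.09 (adjusted exact permutation p = 0.919), and their ratio was 1.51, or 2.29 without that site. Differences between the classes' ratios were not tested. Leaving out E13.5, E15.5 or P21, and also E18.5 for the antisense and P6 for the tail-to-tail class, gave an adjusted exact permutation p of 0.104 for those classes, while far downstream and isolated sites kept a rho of 1 without any of the 6 stages.

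**Figure D2:**
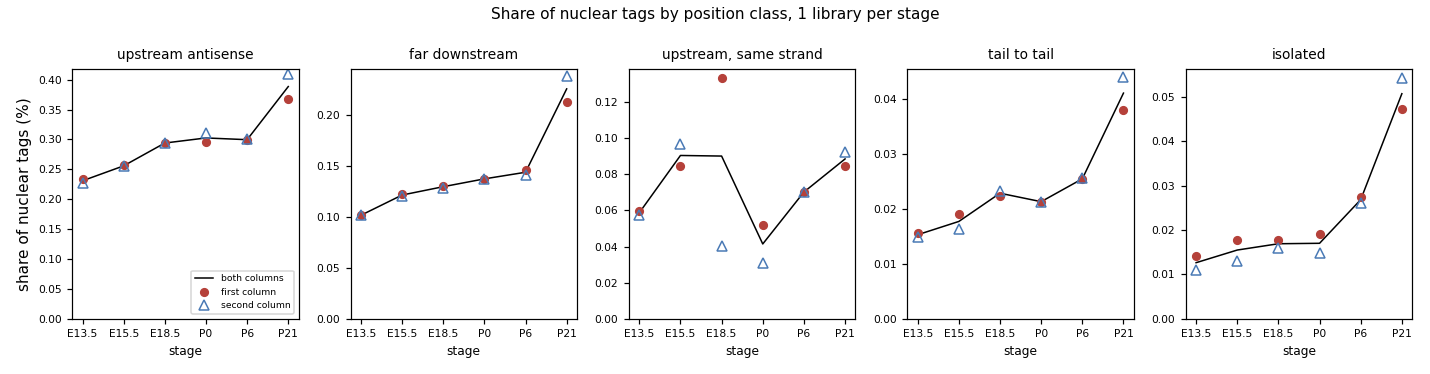
Share of nuclear tags (y axis, %, from 0, with its own scale in each panel) by stage (x axis) for the 5 position classes. Lines show both columns of a stage added, circles the first column and triangles the second; P21 is highest in 4 panels, and in the same-strand upstream panel the columns of E18.5 lie apart at 0.134 and 0.0400%.

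Site by site, rises outnumbered falls. Of the 921 sites, 905 had at least 1 CPM in at least 2 libraries and entered an edgeR quasi-likelihood fit of all nuclear sites on stage order. At an adjusted p of 0.05 or less 235 rose, 26.0% of those tested, where 15.1% of all 32592 nuclear sites rose. 35 fell (3.87%), where 8.96% of all nuclear sites, which had more tags, fell. The median fitted log2 change was 0.92 for intergenic sites and 0.01 for all nuclear sites. Every class had more rising than falling sites: 108 and 19 of 496 antisense sites, 75 and 6 of 229 far downstream sites, 20 and 4 of 84 same-strand upstream sites, 10 and 2 of 34 tail-to-tail sites, and 22 and 4 of 62 isolated sites. The counts rested on P21 and E13.5. Without P21 52 rose and 9 fell, without E13.5 117 rose and 19 fell, and the falling count was 12 without E15.5 and 17 without P6. Of the 270 calls, 44 were also made without P21, and 3 of the 239 still tested had the opposite sign.

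**Figure D3:**
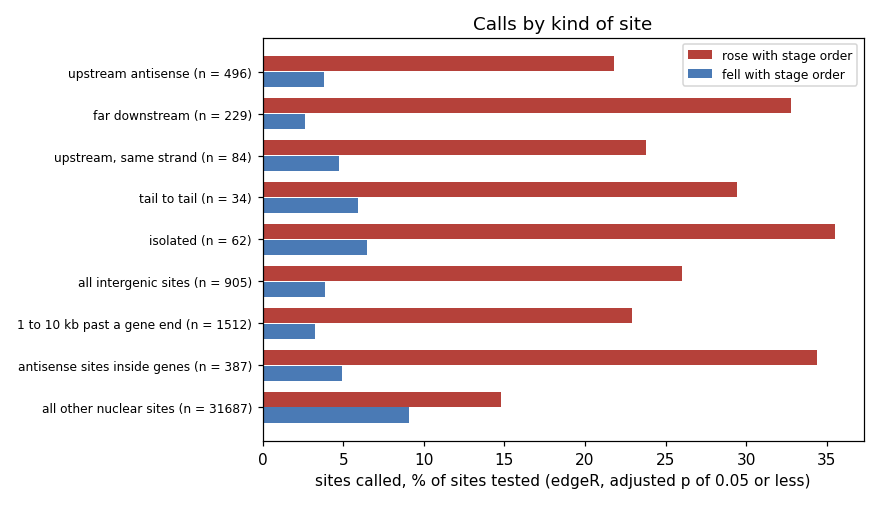
Percentage of tested sites (x axis) that rose (red) or fell (blue) with stage order, for each class of intergenic sites, for all of them, and for other kinds of site, with the number tested (n). Isolated sites had 35.5% rising and all other nuclear sites 14.8%, and falling sites made up 2.62 to 6.45% of the classes, against 9.10% of all other nuclear sites and 3.43% of those other sites that had 41 to 59 tags.

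Intergenic sites were less abundant than other sites, with a median of 82 tags over the series against 232, and a median enrichment score of 5.80 against 15.4, the score being the authors'. Their calls were therefore set beside those of other sites of similar abundance. At 41 to 59 tags 22.6% of the intergenic sites rose, against 11.6% of other sites, and at 200 to 499 tags 31.4% rose, against 15.1%. At 500 tags or more 8 of 30 intergenic sites rose (26.7%), against 15.9%. Falls were compared in the same way. At 41 to 59 tags 1.28% of the intergenic sites fell, against 3.43% of other sites, and at 60 to 99 tags 5.92% fell, against 5.22%. At 100 to 199 tags 3.03% fell, against 7.67%, at 200 to 499 tags 6.67%, against 9.50%, and at 500 tags or more none of the 30, against 13.4%. The differences in these shares were not tested. The sites most like them behaved alike in direction. Of 387 sites antisense to a gene and inside it, 133 rose (34.4%) and 19 fell, and of 1512 sites 1000 to 10000 bases past a gene end 347 rose (22.9%) and 49 fell. The share of nuclear tags at P21 over that at E13.5 was 2.54 for antisense sites inside genes and 1.59 for sites past gene ends.

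Counts of tags at the end points, with no test, leaned the same way. Of 535 intergenic sites with at least 20 tags in the larger of P21 and E13.5, 343 were at least 2-fold higher at P21 (64.1%) and 84 at least 2-fold lower (15.7%). Among all 24960 nuclear sites with that many tags, 27.2% were higher and 22.2% lower. By stage, P21 was the highest of the 6 for 382 of the 921 (41.5%) and E13.5 for 76 (8.25%), and among other nuclear sites the shares were 26.1% at P21 and 20.9% at E13.5. No tags were found at P21 for 11 intergenic sites and at E13.5 for 58, where the 3-tag limit of a count of 0 was 0.771 CPM at P21 and 0.791 CPM at E13.5.

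Rising antisense sites lay beside rising, falling and uncalled partner genes. Both were tested in 451 pairs, the gene by the summed tags of its sites. The site rose in 96 pairs, and in these the partner gene rose in 34, fell in 16 and was not called in 46. The site fell in 14 pairs, with the gene falling in 7, rising in 1 and not called in 6. Of all genes tested 17% rose and 13.2% fell, and of the partner genes in these pairs 15.5% rose and 18.8% fell. The median fitted log2 change was 0.70 for the sites and -0.15 for the genes, and the site's change was above the gene's in 322 of 451 pairs (71.4%). A tag marks 1 RNA end, so tags need no scaling by length, and the median pair had 5.31 site tags per 100 gene tags, with quartiles of 2.64 and 12.3. Summed over all pairs, the antisense sites held 4.86, 5.43, 6.26, 6.44, 6.28 and 8.92 tags per 100 tags of their partners in stage order (rho 0.943, exact permutation p = 0.0167; without E13.5, E15.5, E18.5 or P21 rho 0.9, exact permutation p = 0.0833). The partners' own sum stayed between 40610 and 43530 CPM. This ratio was added after the data were seen.

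**Figure D4:**
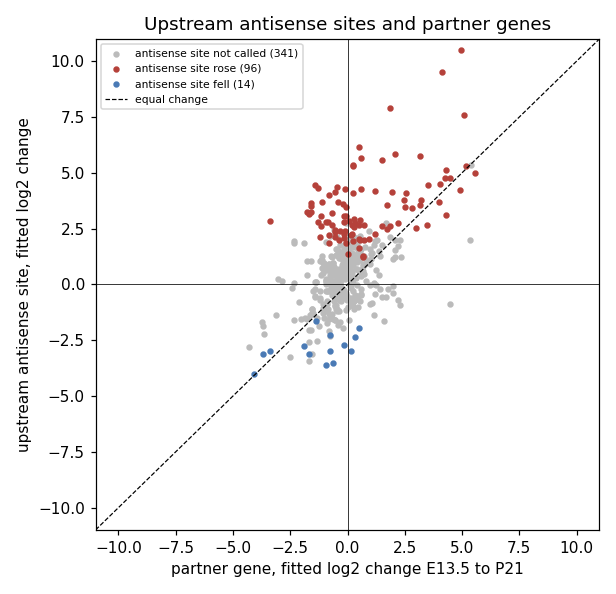
Fitted log2 change (P21 over E13.5) of an upstream antisense site (y axis) against that of its partner gene (x axis) in 451 pairs, coloured by the call of the site, with the line of equal change dashed. Red points (96 sites that rose) spread from falling to rising partner genes, and 322 points lie above the line.

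Far downstream sites also had a higher median change than the gene before them. In 140 pairs tested on both sides the median log2 change was 1.24 for the site and -0.21 for the gene, and of the 41 sites that rose, the gene rose in 7, fell in 2 and was not called in 32. The site 15126 bases past Btg2, an antiproliferative gene, had 42, 83, 111, 118, 236 and 241 tags in stage order, or 11.1, 21.6, 23.9, 36.1, 57.7 and 62.0 CPM. RefSeq places it in Gm19497, on the same strand. It rose at each step, by 2.49 ± 0.32 in the fit (edgeR, adjusted p = 0.00237), and Btg2 itself had a change of -0.03 ± 0.30 (adjusted p = 0.956). The site chr11:50125716, 20958 bases past the GENCODE end of the ubiquitin ligase gene Rnf130 and inside the longer RefSeq model of Rnf130, had 148, 262, 319, 315, 417 and 349 tags in stage order. Its change was 1.21 ± 0.32 (adjusted p = 0.0277) and was not called without E13.5 or P6 or with days after conception in place of stage order. It held 1810 tags, more than the 236 at the annotated gene, which were not called (-1.22 ± 0.72, adjusted p = 0.226). Another far downstream site, 14556 bases past Rnf130, held 274 tags. It had a fitted change of -1.28 and was not called.

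The 10 sites with the most tags held 16.5% of the intergenic tags. Among them the antisense site 578 bases upstream of Mir124a-1hg, the host gene of the neuronal microRNA miR-124, had 7.38, 12.2, 11.2, 38.6, 50.4 and 89.5 CPM. It rose by 3.76 ± 0.44 (edgeR, adjusted p = 0.00189), beside a rise of 3.21 ± 0.30 of Mir124a-1hg itself (adjusted p = 0.00238). The antisense site 814 bases upstream of Ggnbp2, in the RefSeq gene Ggnbp2os, had 28.7, 38.0, 45.9, 46.5, 62.4 and 114 CPM and rose by 1.83 ± 0.29 (adjusted p = 0.00446), a call lost without P21, while Ggnbp2 had a change of -0.05 ± 0.17 (adjusted p = 0.83). For both, every later stage from P0 on was above the 3 embryonic ones, though at Ggnbp2 P0 (46.5 CPM) was barely above E18.5 (45.9 CPM).

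Other abundant antisense sites did not pass the test. The site 1139 bases upstream of Bicra, a chromatin remodelling subunit, had 41.8 to 64.7 CPM with no order by stage and held 1227 tags, against 264 for Bicra. The site upstream of Tbc1d22a had 24.6 to 44.5 CPM. The site 2846 bases upstream of Xrn2, a nuclear exonuclease that acts at transcription ends, had 37.9, 41.9, 41.8, 58.2, 23.5 and 10.5 CPM (-1.33 ± 0.74, adjusted p = 0.22), low at P6 and P21, and Xrn2 fell by 0.81 ± 0.19 (adjusted p = 0.0181). The site 4259 bases upstream of Vars, the valyl-tRNA synthetase gene, lies in the RefSeq gene D17H6S56E-5 and had 107, 108, 140, 155, 34.0 and 21.6 CPM (-2.06 ± 0.94, adjusted p = 0.144). Its columns of P21 lay apart, with 76 tags in the first and 8 in the second. It led a group of 4 intergenic sites within 1119 bases, all low at P6 and P21. Of the others only the one 3140 bases from Vars passed the test (-3.10 ± 0.94, adjusted p = 0.0431), and that call was lost when any stage other than P0 was left out. It was also lost in first or second columns alone and with days after conception in place of stage order. The next groups by tags were a pair at Ggnbp2 and 3 sites in the RefSeq gene 4930445K14Rik upstream of Pcif1, the cap methyltransferase gene. Those 3 sites differed: the one 4441 bases from Pcif1 had 13.7 CPM at E13.5 and its highest value at P0 (53.0), and the one at 1020 bases had 7.71 CPM at P21, its lowest, and 13.7 at E13.5, and none passed the test. The last of the 10 sites, on chr6:3201653, 10751 bases past Gm42959, had 183 to 276 CPM in all stages (-0.45 ± 0.18, adjusted p = 0.1).

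**Figure D5:**
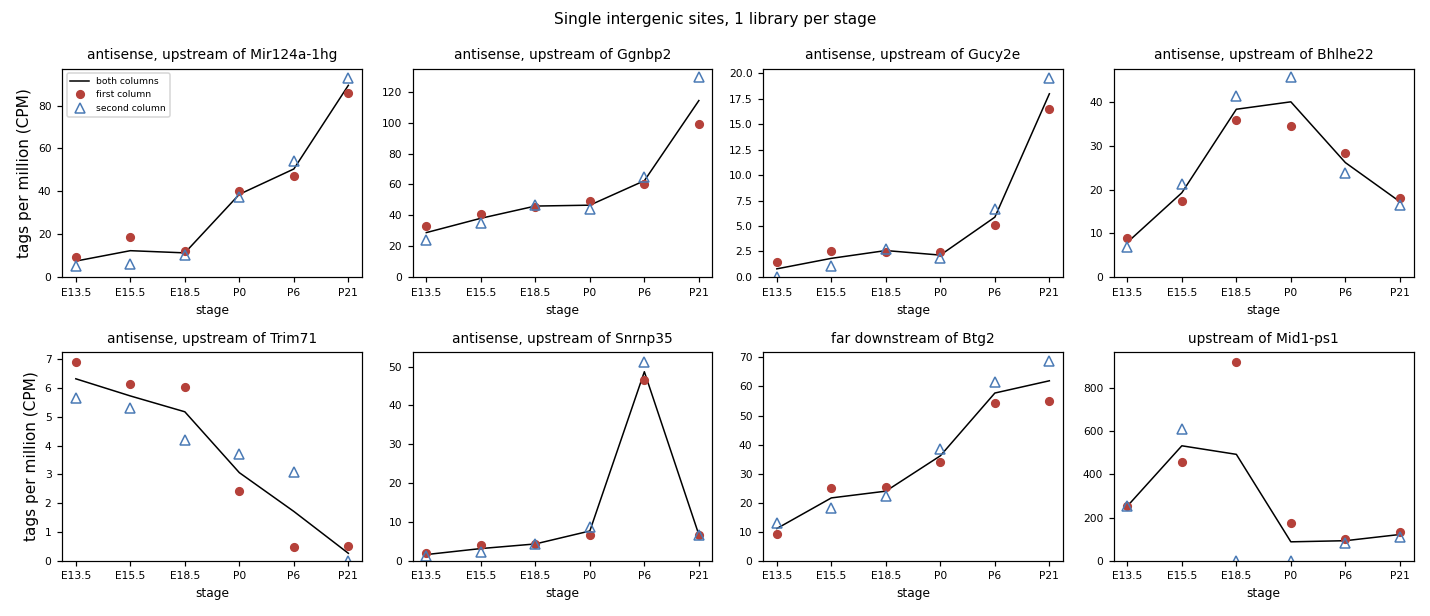
CPM (y axis, from 0, with its own scale in each panel) by stage (x axis) at 8 intergenic sites, named by the gene beside them. Lines show both columns added, circles the first and triangles the second; the Mir124a-1hg, Ggnbp2, Gucy2e and Btg2 panels are highest at P21, Trim71 at E13.5, Bhlhe22 at P0 and Snrnp35 at P6, and in the Mid1-ps1 panel, the chr Y site, the second column is at 0 at E18.5 and P0.

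Sites with the largest rises were chosen by their fitted change in these same counts, so few tags in the embryo follow from the choice. Of the 10 with the largest fitted rise among sites with a mean of at least 3 CPM and at least 4 steps upward, 7 had no tag at E13.5 and the other 3 had 1. Against the limit of 3 tags, the 7 were at least 17.2-fold to 50.1-fold higher at P21. Their fitted changes depend on the prior count and are no bound. The site chr17:45732203, in the RefSeq gene BE949265, had 154 tags at P21 (39.6 CPM), at most 10 at any other stage and none at E13.5, and its call was lost without P21. An isolated site on chr15:86566052, 67549 bases from Tbc1d22a, had 0, 5, 5, 5, 28 and 152 tags. An isolated site on chrX:14706171, 90564 bases from the nearest gene, had 0, 2, 1, 1, 17 and 53 tags. These are sites at which P6 and P21 held nearly all tags, so these stages also carried them past the mean of 3 CPM.

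2 of the 10 lay on the strand of Sept9, a septin gene, and past its end. The sites chr11:117385384, 23059 bases past Sept9, and chr11:117413103, 50778 bases past it, had 240 and 93 tags at P21 and 1 and 0 at E13.5. The second is of the same-strand upstream class, and its nearest gene was Gm11729, whose start lay 1286 bases ahead. A link of either site to Sept9 was not tested. The second was called in every setting tried (adjusted p = 0.00184), and the call of the first was lost without E13.5 or P21 (adjusted p = 0.0144). Sept9 itself was not called (-1.43 ± 0.48, adjusted p = 0.0586). Another 4 of the 10 had Nhlrc2, Haus1, Gm48575 and Gm12729 as nearest genes, at 10055, 6997, 12048 and 52016 bases. The Gm12729 site was of the isolated class. All 4 had 55 to 104 tags at P21 and were called in every setting in which they were tested. The Nhlrc2 site was below the filter without P6 or P21.

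The 10 sites with the largest falls, also chosen by their fitted change, had 0 to 6 tags at P21 and 17 to 169 at E13.5. Of these, 4 had at most 33 tags at any stage. The site chr5:13618979, 1164 bases upstream of Gm43718 on the same strand, had 107, 39, 7, 2, 1 and 1 tags in stage order, with an adjusted p of 0.0015. The site chr1:166047996, in the RefSeq gene Gm33224, had 57, 21, 8, 3, 1 and 1 tags (adjusted p = 0.00172), and the antisense site of Gm34785 on chr12:110190286 had 169, 162, 63, 40, 9 and 4 tags (adjusted p = 0.00274). These 3 held in every setting tried. Among antisense sites of coding genes, that of Slc43a1, an amino acid transporter gene, at 1 base from its start, had 19.5, 18.0, 12.3, 13.2, 1.71 and 0.514 CPM (-4.01 ± 1.07, adjusted p = 0.028), and Slc43a1 fell beside it by 4.08 ± 0.95 (adjusted p = 0.0185). The antisense site of Trim71, an RNA-binding gene of early development, had 6.33, 5.73, 5.18, 3.06, 1.71 and 0.257 CPM (-3.14 ± 0.81, adjusted p = 0.0249), and Trim71 fell by 3.69 ± 0.60 (adjusted p = 0.00627). Sites upstream of Smad3, a TGF-beta signalling gene, and of Zfp704 fell with adjusted p of 0.0421 and 0.0293. The calls at Slc43a1, Trim71, Smad3 and Zfp704 were each lost without E15.5, P6 or P21, and at Trim71 and Smad3 also without E13.5. First columns alone lost the calls at Smad3 and Zfp704, and second columns alone those at Trim71 and Zfp704. The other 3 of the 10 lay near Gm36548, Gm22195 and Gm44456.

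Intergenic sites beside cell-type genes were few. All 4 sites whose nearest gene was on the photoreceptor list rose, with a median fitted log2 change of 5.38, where 26.0% of all intergenic sites and 15.1% of all nuclear sites rose. 2 of the 4 lay beside Tulp1 on 1 strand and within 5000 bases of each other, so they may share 1 RNA and are not independent. The antisense site 250 bases upstream of Gucy2e, the photoreceptor guanylate cyclase gene, had 0.791, 1.82, 2.59, 2.14, 5.87 and 18.0 CPM. It rose by 4.21 ± 0.66 (edgeR, adjusted p = 0.0042), a call lost without P21, and Gucy2e rose by 4.91 ± 0.78 (adjusted p = 0.00565). A site 6190 bases upstream of Tulp1, a gene of photoreceptor protein transport, on the same strand, had 0.527, 1.30, 1.08, 3.06, 13.9 and 13.1 CPM and rose by 5.23 ± 0.79 (adjusted p = 0.00369). The other 2, also beside Tulp1 and past Impg2, a gene of the matrix around photoreceptors, had 7.46 and 6.68 CPM at P21 and 0.527 and 0.264 CPM at E13.5. The summed photoreceptor markers given above were higher at P21 as well, and the summed progenitor markers were at 2049 CPM at P21 and 7514 CPM at E13.5; the part of cell makeup in these rises was not tested.

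Of 10 sites beside listed neural transcription factor genes 1 rose and 2 fell, counts near the shares of all nuclear sites (15.1% rising and 8.96% falling). Their median fitted log2 change was -0.08. Of 5 sites beside progenitor genes none rose and 1 fell. Of 4 sites beside bipolar genes none rose and 1 fell, while the summed bipolar markers were at 2655 CPM at P21 and 914.8 CPM at E13.5. The antisense site 4235 bases upstream of Mef2d, a transcription factor gene active in photoreceptors, had 3.43, 4.17, 3.24, 7.65, 21.8 and 47.1 CPM and rose by 4.14 ± 0.62 (edgeR, adjusted p = 0.00369), and Mef2d rose by 1.92 ± 0.43 (adjusted p = 0.016). The antisense site of Bhlhe22, a transcription factor gene of amacrine and bipolar cells, was highest in the middle of the series, with 7.91, 19.3, 38.4, 40.1, 26.2 and 17.2 CPM, and a straight line did not pass the test (adjusted p = 0.482). The site at Rrm2, the S-phase ribonucleotide reductase gene, had 10.8, 8.07, 7.33, 12.5, 0.979 and 0.771 CPM and did not pass (-2.78 ± 1.24, adjusted p = 0.133), while Rrm2 fell by 4.28 ± 1.03 (adjusted p = 0.0207).

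For ganglion cell genes 2 of 6 sites rose and 1 fell, where 15.1% of all nuclear sites rose and 8.96% fell, and the summed ganglion cell markers were at 2373 CPM at P21 and 4203 CPM at E13.5. The antisense site of Nefh, the heavy neurofilament gene, which RefSeq places in Ap1b1, had 1, 4, 9, 4, 49 and 20 tags in stage order (4.48 ± 1.11, adjusted p = 0.0212). That call was lost without E13.5 or E15.5 and with days after conception in place of stage order. The single sites beside Müller glia (Kcnj10), vascular (Kdr) and microglia (C1qa) genes were not called. No intergenic site had a lens, pigment epithelium, red blood cell or amacrine and horizontal cell gene as its nearest. The pattern of the lens markers, with E15.5 and P0 both more than 2-fold above every other stage, was found at none of the 921 sites and at 27 of 31749 other nuclear sites (0.0850%), a share too low for a count of 0 among 921 to set them apart.

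The farthest sites from any gene lay together. On chr4, sites at 153696705, 153698412 and 153698676 stood 177708 to 179679 bases from the nearest gene, Gm25880. The first had 1.05, 6.77, 12.1, 7.35, 29.4 and 10.8 CPM, highest at P6, and the others were also highest at P6 or at E18.5, with 5.87 CPM at P6 and 3.45 CPM at E18.5. None passed the test (adjusted p = 0.0736, 0.221 and 0.16 by edgeR). In all, 208 of the 921 sites had another intergenic site of their strand within 5000 bases, in 92 groups of up to 6, so sites of a group may share 1 RNA and are not independent.

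The columns of a stage disagreed at some sites. The chr Y site, chrY:90739257, 13800 bases upstream of the pseudogene Mid1-ps1, had 512 and 448 tags in the first and second column of E13.5, 897 and 1150 at E15.5, 2287 and 0 at E18.5, 286 and 0 at P0, 220 and 159 at P6 and 259 and 214 at P21. It was not called (-2.30 ± 0.82, adjusted p = 0.0726). At 13 of the 921 sites a second column held 0 tags where the first held 10 or more, 14 cases in all and 9 of them at E15.5, and no site showed the reverse. The part of this difference in the results was not tested. Without these 13 sites 224 rose and 35 fell, and the share of nuclear tags still followed stage order (rho 1, exact permutation p = 0.00278), with 0.730% at P21 and 0.393% at E13.5.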

How the data were processed

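The deposited table held, per the file headers, tag counts at poly(A) sites in 12 columns, 2 per stage, and an enrichment score. Alignment used BWA 0.7.5a-r405 and mm10, per the submitters' processing notes. Site clustering, filtering, duplicate removal, the formula of the authors' score and the meaning of a stage's columns are not given in the sources used here. All count values were whole numbers and the columns of a stage were added. Edges were read as 1-based and placed on GENCODE M21.

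All nuclear sites were fitted by the quasi-likelihood F test of edgeR 4.0.16 under R 4.3.3, with TMM factors (1 linear term for stage order, 4 residual degrees of freedom). Sites needed 1 CPM in 2 libraries, and Benjamini-Hochberg adjusted p of 0.05 or less over all sites was called. A fitted change is the log2 change over 5 steps, its SE the change over the square root of F. Genes were fitted likewise on the summed tags of sites inside them or up to 1000 bases past their end. In simulated data for this fit (32589 sites), 46% of sites changed by a log2 of 2 and 94% of those changed by 4 were called. The changed sites were drawn at random from all nuclear sites and followed a straight line. Recovery among intergenic sites, which had fewer tags, was not measured. DESeq2 1.42.0 was an alternative. Shares were tested by two-sided exact permutation of rho and r.

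Sites named were the 10 with the most tags, the 10 largest rises and falls with a mean of at least 3 CPM and 4 of 5 steps in 1 direction, the 3 farthest from a gene, the 5 most abundant antisense sites, the 3 most abundant groups within 5000 bases and up to 2 per cell-type list. Sites with a sequence were named besides. The members, lists and classes were chosen with earlier results of these data known, so their p-values are not independent evidence. The second Tulp1 site and the Impg2 site were named after their values were seen. A few sites that the rule picked are not reported. The labels do not say how many animals a sample held. Poly(A) signals were searched only where RefSeq promoter sequence covered a site. Intervals and floors cover counting error only, as PCR reads are not independent molecules.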

Additional observations from a re-analysis of the deposited data

How the results depend on the processing

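No paired analysis was possible because each stage had 1 sample. Size factors, no filter on low counts, DESeq2 and days after conception left the counts of rising and falling sites within 1.5 times of 235 and 35. Leaving out a stage gave 52 to 247 rising, 9 to 49 falling and 61 to 296 called sites in all. First columns alone gave 23 falling sites and second columns 21. Stricter position rules leave fewer sites by construction: with no same-strand gene end within 50000 bases, 97 rose and 19 fell (116 called), and with no gene within 10000 bases 74 rose and 8 fell (82 called). The latter were 31.0% and 3.35% of 239 tested sites. Of all intergenic sites tested 26.0% rose and 3.87% fell, and of all nuclear sites 15.1% and 8.96%. The number tested under the 50000-base rule is not given here.

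For the share of nuclear tags, rho was 0.829 in first columns (exact permutation p = 0.0583), 0.714 with the 50000-base rule (p = 0.136 by the same exact permutation test) and 0.543 with no gene within 10000 bases (exact permutation p = 0.297). Both of these stricter sets hold the chr Y site and were not tested without it. Leaving out a stage gave a rho of 0.9 to 1 for the share, for the antisense and tail-to-tail classes and for the antisense tags per partner tag.

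Of the 343, 84 and 427 sites 2-fold higher, lower or either at P21 than at E13.5, first columns gave 162, 32 and 194, second columns 208, 29 and 237, the 50000-base rule 150, 37 and 187, no gene within 10000 bases 91, 20 and 111, and 50 tags in the larger library 134, 19 and 153. At 4-fold, 46 were lower. Fewer tags per library and smaller sets make these counts smaller by construction. A planned share of tags at sites with a poly(A) signal was not run. At these depths a count of 0 allows a level of up to 3 tags, or 0.647 to 0.918 CPM by library.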
